A study of Mus musculus with 84 samples.

Results

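The mRNA of 10 genes that build plasma lipoproteins was followed in the liver and the inguinal adipose tissue (IAT) of diabetic db/db mice treated with rosiglitazone (RSG) or with a compound known only as S. The genes were 9 apolipoproteins (Apoa1, Apoa2, Apoa4, Apoa5, Apob, Apoc1, Apoc2, Apoc3 and Apoe) and Mttp, the microsomal triglyceride transfer protein. They were taken by name from the gene symbols of the array files, in which they are 10 of 27566 named genes, by a rule that uses no measured value, although the set was proposed with earlier results of these data known. On the array they have 14 probes, of which 1 stands for each gene in each tissue.

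All mice were db/db males of the strain BKS Cg-m+/+ Leprdb/J, which lack a working leptin receptor, and were obtained at 8 weeks of age. RSG, an agonist of the nuclear receptor PPARγ, or S was given by mouth for 18 days at 28, 84 or 280 µmol/kg, and each of the 12 groups (2 tissues, 2 compounds and 3 doses) held 6 mice. By the study's methods both tissues were taken from each animal, and the labels do not say which liver and IAT samples share a mouse. RNA of each treated mouse was hybridised on 2-colour arrays together with 1 pool of RNA from 6 control db/db mice of the same tissue, once in each dye orientation. The values below are log2 ratios of treated mouse over pool, so that 1 is a level of 2 times that of the pool and 0 is the level of the pool. The pool counts as 1 control sample, and the spread between control mice is in none of the tests. Because the mice were all diabetic, no value describes a healthy liver or fat depot.

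Lipoproteins carry triglycerides and cholesterol in the blood. The liver builds very low density lipoprotein around apolipoprotein B, which Mttp loads with lipid in the endoplasmic reticulum, while apolipoproteins A-I and A-II form the protein coat of high density lipoprotein. The smaller apolipoproteins move between particles and set how fast they are cleared: apolipoprotein C-II activates lipoprotein lipase, C-III slows lipolysis and uptake, A-V favours lipolysis, and apolipoprotein E is the ligand by which receptors take up remnants. Adipose tissue secretes little lipoprotein of its own but expresses Apoe and Apoc1, partly in its macrophages.

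Several of the members are neighbours in the genome. By the probe positions that the array files give for mouse build mm8, Apoa1, Apoc3, Apoa4 and Apoa5 lie on chromosome 9 with probes 3.4, 11.7 and 41.2 kb from that of Apoa1, and Apoc2, Apoc1 and Apoe lie on chromosome 7 with probes 17.9 and 24.8 kb from that of Apoc2. The upstream sequences of the 3 genes of the chromosome 9 cluster for which the reference table has an entry are shown because these neighbours moved in opposite directions in liver. They are the 250 bases before the annotated start, from RefSeq on GRCm38.p6, read on the + strand from 5′ to 3′, at chr9:46228380-46228629 for Apoa1, chr9:46240594-46240843 for Apoa4 and chr9:46268358-46268607 for Apoa5, where the second annotated start of Apoa5 is not shown. Capitals mark the hexamers AGGTCA or AGTTCA or GGGTCA or GGTTCA, to which nuclear receptors of the PPAR and RXR type bind when they are suitably spaced, on either strand.
Apoa1: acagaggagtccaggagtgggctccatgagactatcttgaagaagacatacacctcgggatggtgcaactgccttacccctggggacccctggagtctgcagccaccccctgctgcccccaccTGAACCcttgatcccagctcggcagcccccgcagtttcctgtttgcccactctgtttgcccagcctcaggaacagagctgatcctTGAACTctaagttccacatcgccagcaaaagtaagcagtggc
Apoa4: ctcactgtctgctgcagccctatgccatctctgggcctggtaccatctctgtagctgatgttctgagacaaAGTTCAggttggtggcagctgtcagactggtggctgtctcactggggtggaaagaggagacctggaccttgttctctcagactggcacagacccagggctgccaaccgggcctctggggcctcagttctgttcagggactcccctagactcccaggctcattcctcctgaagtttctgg
Apoa5: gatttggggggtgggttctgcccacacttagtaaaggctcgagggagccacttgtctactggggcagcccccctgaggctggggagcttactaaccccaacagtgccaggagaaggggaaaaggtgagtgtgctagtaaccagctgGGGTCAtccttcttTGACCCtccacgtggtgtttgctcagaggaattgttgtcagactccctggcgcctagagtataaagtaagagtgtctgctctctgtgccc
At least 1 such hexamer stood in 10 of the 12 windows of the 8 members that have an entry (none was found for Apoc1 and Apoc3), against 38.6% of all 32851 promoter windows. A direct repeat of 2 hexamers with 1 base between them stood in 0 of the 12 windows and in 0.164% of all windows. The Apoa5 window also holds the letters TATAA on its forward strand. In all, 5 of the 12 windows and 16% of all windows, which have the same length, hold them, and no binding was measured in these samples. The 12 windows are not independent, because several members have more than 1. The windows of Apoa5 overlap and hold the same hexamers and the same TATAA. The shares were not compared by a test.

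In liver, Apoa1 rose and Apoa5 and Apoc3 fell in all 6 groups, and the other members moved by less or not in all groups. Of the 10 members, limma with Benjamini-Hochberg adjustment over all 26023 probes tested (adjusted p under 0.05) called 5 higher and 3 lower at 28 µmol/kg RSG, where 58.5% of all probes were called (24.8% higher and 33.7% lower). At 84 µmol/kg RSG it called 4 higher and 4 lower (56.5% of all probes, 23.9% higher and 32.6% lower), and at 280 µmol/kg RSG 3 higher and 4 lower (50.9%, 21.4% and 29.5%). For S it called 6 higher and 3 lower at 28 µmol/kg (51.3%, 23% and 28.3%), 6 higher and 3 lower at 84 µmol/kg (54.3%, 23.7% and 30.6%), and 4 higher and 6 lower at 280 µmol/kg (65.8%, 27.9% and 37.9%). By the rule of the study's methods, an unadjusted p under 0.001 and a fold of at least 1.3, it called 3, 3 and 3 members at the rising doses of RSG, where 19.5, 18.1 and 14% of all probes were called, and 3, 3 and 4 for S, where 13.5, 16.2 and 27.8% were. With so many probes called against the pool, a count of members says little, and the members are described by the size of their changes. The values for each mouse are shown in the plot of the members in liver.

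**Figure D1:**
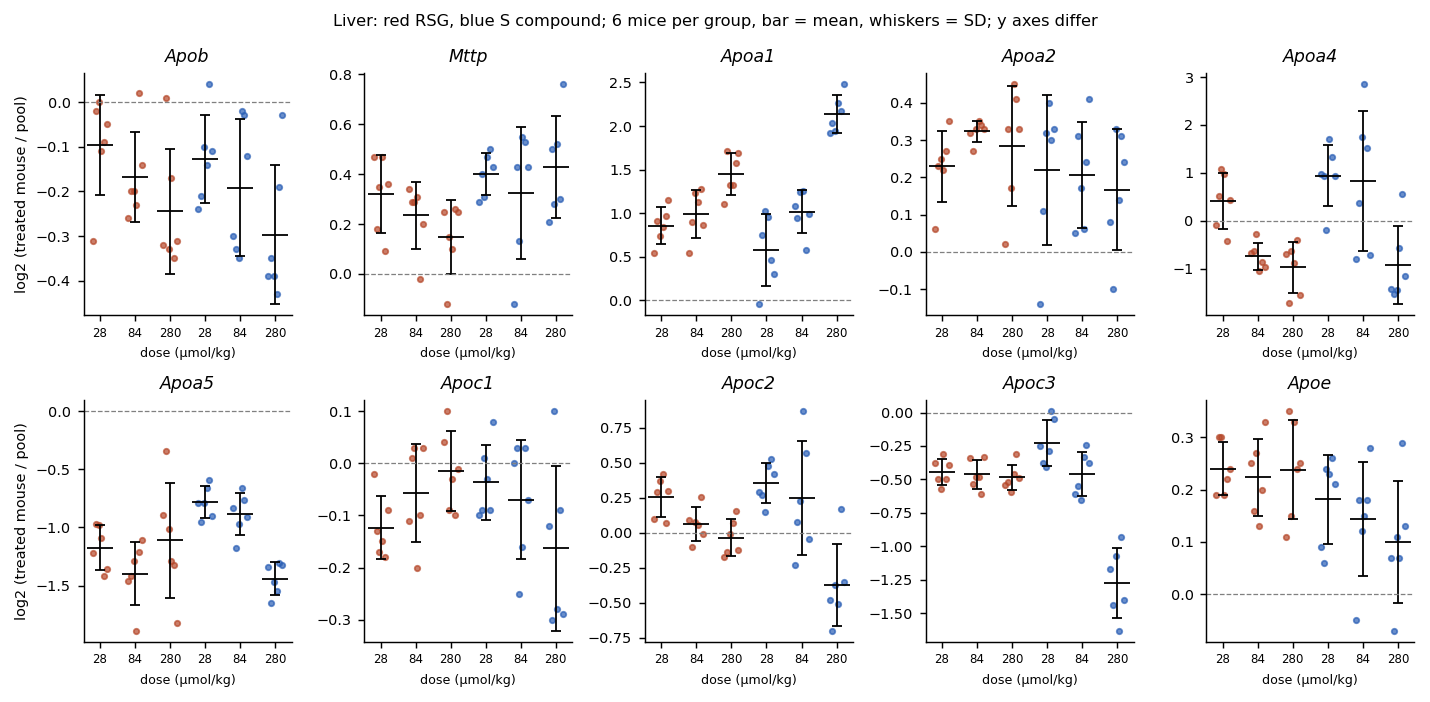
Log2 ratio of treated mouse over pool in liver for each member (y axis) against dose in µmol/kg (x axis); points are the 6 mice of a group, red for RSG and blue for S, bars are means and whiskers the SD. Apoa1 reaches 2.14 at 280 µmol/kg S, Apoa5 is below 0 in every mouse, and Apoc3 at 280 µmol/kg S lies below all other groups.

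Apoa1, the main protein of high density lipoprotein, was raised most. Its ratio ranged from 0.54 to 1.15 at 28 µmol/kg RSG (median 0.87), from 0.54 to 1.28 at 84 µmol/kg (median 1.01) and from 1.11 to 1.71 at 280 µmol/kg (median 1.45). Under S it ranged from -0.04 to 1.02 (median 0.61), from 0.58 to 1.25 (median 1.04) and from 1.92 to 2.48 (median 2.10) at the same doses. All mice but 1, at the lowest S dose, were above the pool. The 6 mice at 280 µmol/kg S were above all other mice, and the remaining groups overlapped with their neighbours. The means correspond to 1.81, 1.99 and 2.75 times the pool under RSG and 1.49, 2.02 and 4.40 times under S, with adjusted p from 2.1e-17 at the highest S dose to 4.9e-05 at the lowest. The mice of 28 µmol/kg S were all scanned on 1 day, and with scan day as the block the mean of that group was 0.41 with an adjusted p of 0.28. Apoa2, the second protein of the same particle, changed little, with means from 0.17 ± 0.16 (SD, n = 6) at 280 µmol/kg S to 0.32 ± 0.03 at 84 µmol/kg RSG. It was called higher in all 6 groups, but its mean ratio over all liver arrays was 0.68 with the treated mouse in Cy5 and -0.21 with it in Cy3. With scan day as the block its calls at 28, 84 and 280 µmol/kg S were lost (0.24, 0.20 and 0.14, adjusted p 0.22, 0.081 and 0.18). That at 28 µmol/kg S was also lost with normexp background correction (0.13, 0.052), and that at 280 µmol/kg S with the same correction (0.04, 0.52), with the group fitted alone (0.054) and without replicate 3 (0.059) or 5 (0.055).

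Apoa5, the activator of lipolysis encoded 41.2 kb from Apoa1, went the other way. Its ratio ranged from -1.42 to -0.97 (median -1.16), from -1.89 to -1.11 (median -1.35) and from -1.82 to -0.34 (median -1.15) at 28, 84 and 280 µmol/kg RSG. For S the ranges were -0.95 to -0.59 (median -0.79), -1.18 to -0.66 (median -0.87) and -1.65 to -1.31 (median -1.41). No treated mouse reached the level of the pool, and the mean level was between 0.368 and 0.584 times that of the pool. The adjusted p was between 1.2e-12 and 2.7e-10 under RSG, and 3.5e-07, 2.2e-08 and 1.5e-13 at the rising doses of S, of which the first was lost with scan day as the block (-0.34, 0.23). A second probe of Apoa5 gave -0.80 and -1.10 at 280 µmol/kg RSG and S, on the same side of 0.

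Apoc3, the inhibitor of lipolysis, was lower by a similar amount at all doses of RSG. Its 6 mice ranged from -0.57 to -0.31 (median -0.44), from -0.61 to -0.33 (median -0.48) and from -0.59 to -0.31 (median -0.50), with means of 0.737, 0.726 and 0.715 times the pool (adjusted p 6.6e-07, 3.1e-07 and 2.0e-07). S gave -0.41 to 0.01 (median -0.27), -0.65 to -0.24 (median -0.46) and -1.63 to -0.93 (median -1.29), with a mean at the highest dose of 0.413 times the pool (adjusted p 1.8e-17). All mice of that last group lay below every other mouse, and the other groups overlapped. At 28 µmol/kg S the mean of -0.23 (adjusted p 0.0039) became -0.03 (0.92) with scan day as the block. The other probe of Apoc3 gave -0.51 and -1.31 at 280 µmol/kg RSG and S.

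Apoa4, a protein of chylomicrons and high density lipoprotein that responds to fasting and to dietary fat, varied most between mice of a group. Under RSG it ranged from -0.41 to 1.09 (median 0.47), from -1.04 to -0.27 (median -0.76) and from -1.70 to -0.39 (median -0.78) at the rising doses. Under S the ranges were -0.19 to 1.71 (median 0.95), -0.79 to 2.85 (median 0.95) and -1.52 to 0.57 (median -1.28). Mice of 1 group stood on both sides of the pool in 4 of the 6 groups. limma called it lower at 84 and 280 µmol/kg RSG (-0.73 and -0.97, adjusted p 0.048 and 0.011) and at 280 µmol/kg S (-0.92, 0.012), and higher at 28 and 84 µmol/kg S (0.95 and 0.83, 0.013 and 0.027). The call at 84 µmol/kg RSG was lost when any of 5 of its mice was left out (adjusted p 0.047 to 0.11 over the 6 fits), with the arrays centred on their median (0.06), with no filter on dim probes (0.077) and with the slide as a random block (0.064). The call at 84 µmol/kg S was lost without replicate 3, 4 or 5 (0.12, 0.25 and 0.096) and with the group fitted alone (0.20), that at 28 µmol/kg S without replicate 4 (0.061), and that at 280 µmol/kg S with scan day as the block (-0.76, 0.14).

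The remaining members with a role in lipolysis and uptake moved by small amounts. Apoc2, the cofactor of lipoprotein lipase, was higher at 28 µmol/kg RSG (0.26 ± 0.14, SD, n = 6, adjusted p 0.017), and 0.06 ± 0.12 and -0.03 ± 0.13 at the higher doses were not called. Under S it was higher at 28 µmol/kg (0.36 ± 0.15, 0.0017) and 84 µmol/kg (0.25 ± 0.41, 0.025) and lower at 280 µmol/kg (-0.37 ± 0.29, 0.00078). At 84 µmol/kg S the 6 mice ranged from -0.23 to 0.87, and leaving out replicate 4 (adjusted p 0.26) or 5 (0.13) or fitting the group alone (0.19) ended the call. The call at 28 µmol/kg RSG was lost without replicate 3 (0.051) or 4 (0.062) and with scan day as the block (0.08, 0.53). Apoe, the receptor ligand of remnants, was called higher in all groups with means between 0.10 ± 0.12 at 280 µmol/kg S and 0.24 ± 0.05 at 28 µmol/kg RSG. The smallest of these became -0.03 (adjusted p 0.49) with normexp background correction and was lost without replicate 5 (0.06, 0.15), with scan day as the block (0.12, 0.065) and with the group fitted alone (0.12). The calls at 28 and 84 µmol/kg S were lost with normexp (0.10 and 0.08, 0.061 and 0.11). Apoc1, which is co-expressed with Apoe from the same cluster, was called lower at 28 µmol/kg RSG (-0.13 ± 0.06, 0.012) and 280 µmol/kg S (-0.16 ± 0.16, 0.0011), and both calls were lost with scan day as the block (0.08 and 0.15), the first also after centring (0.051) and the second with the group fitted alone (0.056). The probes of Apoe and Apoc1 were saturated in at least 1 channel on 71 and 57 of the 72 liver arrays, and their mean ratio changed sign with the dye (0.82 and -0.45 for Apoe, 0.54 and -0.69 for Apoc1, with the treated mouse in Cy5 and Cy3). These 2 genes were thus read close to the upper limit of the scanner.

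The assembly genes also moved little, in opposite directions. Mttp ranged from 0.09 to 0.47 (median 0.35), from -0.02 to 0.34 (median 0.29) and from -0.12 to 0.26 (median 0.20) at the rising doses of RSG, and from 0.29 to 0.50 (median 0.41), from -0.12 to 0.55 (median 0.43) and from 0.21 to 0.76 (median 0.40) under S. All mice but 3 were above the pool, and 5 of 6 groups were called higher, with means between 17.6% and 34.7% above it. With scan day as the block the calls at 28 and 84 µmol/kg RSG were lost (0.18 and 0.11, adjusted p 0.083 and 0.4). The mean of 0.15 at 280 µmol/kg RSG was not called (adjusted p 0.076). Apob, the core protein of very low density lipoprotein, was called lower in the 5 groups other than 28 µmol/kg RSG, from -0.13 ± 0.10 at 28 µmol/kg S to -0.30 ± 0.15 at 280 µmol/kg S, or 0.916 to 0.813 times the pool. The first of these was lost when any of 5 mice was left out (adjusted p up to 0.14) and turned to 0.14 (0.35) with scan day as the block, and that at 84 µmol/kg S became -0.05 (0.59). With the same block 28 µmol/kg RSG was called (-0.15, 0.026). The call at 28 µmol/kg S was also lost with centring (0.1), with no probe filter (0.066), with the mean of the 3 probes (-0.06, 0.25) and with the slide as a random block (0.061). Of the 2 further Apob probes, 1 gave -0.25 and -0.32 at 280 µmol/kg RSG and S and the dimmer 1 gave 0.01 and -0.19.

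The lowest and the highest dose were compared for each compound, and the difference between these 2 contrasts was not tested. Between 280 and 28 µmol/kg S, 1 member was higher and 4 were lower, where 28.5% of all probes were called (12.6% higher and 15.9% lower). Apoa1 rose by 1.56 (SE 0.15, adjusted p 7.4e-09), and Apoc3 (-1.05, 8.2e-10), Apoc2 (-0.73, 6.6e-05), Apoa5 (-0.66, 0.00096) and Apoa4 (-1.87, 0.0017) fell. The 6 mice of both doses did not overlap for Apoa1, Apoa5 and Apoc3. The share of all probes without overlap was not counted, for these doses or for any other groups. The pool cancels in the comparison of doses. All 6 mice of 28 µmol/kg S were scanned on 1 day, which held no mouse of 280 µmol/kg S. The difference between these doses of S could thus not be taken within a scan day. Between the same doses of RSG, limma called 0 members (0.0115% of all probes), with an unadjusted p under 0.05 for 3 of the 10. By the study's rule 5 members were called for S, where 8.75% of all probes were, and 1 for RSG, where 0.365% were. The interval of the difference was 0.28 to 0.91 for Apoa1 (adjusted p 0.11), -2.30 to -0.47 for Apoa4 (0.16) and -0.23 to 0.14 for Apoc3 (0.89).

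RSG and S were compared at equal doses in liver over 10 members and 3 doses. S is known only by its code, and nothing is said here of its structure. At 28 and 84 µmol/kg limma called 0 members, where 0.868 and 1.75% of all probes were called, with an unadjusted p under 0.05 for 2 members at each dose. The intervals there do not show that the compounds act alike: for Apoa5 the difference of RSG minus S was -0.40 (95% interval -0.70 to -0.09, adjusted p 0.22) and -0.51 (-0.82 to -0.21, 0.072), and the 6 mice of both compounds did not overlap at 28 µmol/kg. For Apoa4 at 84 µmol/kg it was -1.57 (-2.48 to -0.65, 0.065). For Apoa1 at 84 µmol/kg it was -0.02 (-0.34 to 0.29, 0.97). At 28 and at 84 µmol/kg no scan day held liver mice of both compounds.

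At 280 µmol/kg, 3 of the 10 members differed between the compounds, where 27.6% of all probes were called (13.8% higher and 13.8% lower under RSG). By the study's rule 2 members differed, where 8.24% of all probes did. Apoa1 was lower under RSG than under S (RSG minus S -0.68, 95% interval -0.99 to -0.36, adjusted p 0.0011), and Apoc3 was higher under RSG (0.79, 0.60 to 0.98, 1.1e-07). For both genes no mouse of 1 compound lay within the range of the other, and the share of all probes of which this holds was not counted. Mttp was lower under RSG (-0.28, -0.48 to -0.08, 0.033), with overlapping mice. The liver arrays were scanned on several days, of which 1 held mice of both groups: there, with 2 mice of each, the differences were -0.69 for Apoa1, 0.77 for Apoc3 and -0.28 for Mttp. With scan day as the block Apoc3 kept its call (0.73, adjusted p 0.0015), and Apoa1 (-0.51, 0.18) and Mttp (-0.31, 0.16) did not. The call of Mttp was also lost with no filter on dim probes (0.051), with the slide as a random block (0.055), with the 2 groups fitted alone (0.072) and when any of 5 mice was left out (up to 0.11). Apoc1, Apoc2 and Apoe were 0.15, 0.34 and 0.14 higher under RSG with adjusted p of 0.059, 0.055 and 0.055. With normexp background correction these 3 and Apoa2 were called as well, 7 members in all, and with the replicate number as a block Apoc2 and Apoe were, 5 in all. The differences for all members and doses are shown in the plot of RSG minus S.

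**Figure D2:**
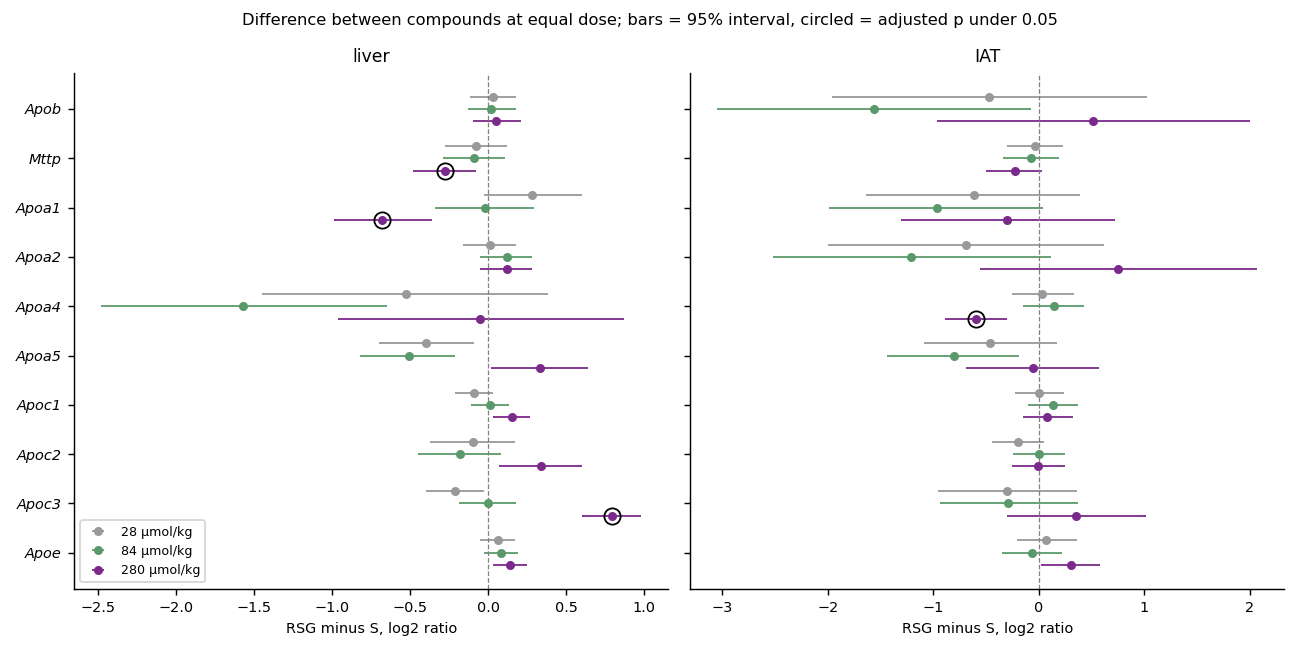
Difference RSG minus S in the log2 ratio to the pool (x axis) for each member (rows) at 28, 84 and 280 µmol/kg, in liver (left) and IAT (right); points are differences of the means of 6 mice, bars the 95% interval, and circles mark an adjusted p under 0.05. In liver Apoa1 (-0.68), Mttp (-0.28) and Apoc3 (0.79) are circled at 280 µmol/kg, in IAT Apoa4 (-0.60) alone; the x axes differ, and the IAT intervals of Apob, Apoa1 and Apoa2 are wide.

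Markers of cell types moved in liver as well. Of 15 tested hepatocyte genes, such as albumin, between 10 and 14 were called lower in each group, with list medians from -0.83 at 84 µmol/kg S to -0.44 at 280 µmol/kg RSG, and the mean over the list per mouse ran from -0.93 to 0.04. Apoa1 thus stood above the pool in mice in which the hepatocyte list stood below it, and Apoa5 and Apoc3 moved in the same direction as that list. Some genes of the list were as bright as the saturated Apoe and Apoc1 (pool medians 386000 and 489000), with 456000 for albumin and 408000 for Ambp. Saturation of the marker genes is not given here. Of 10 adipocyte genes 5 to 7 were called higher, and of 13 macrophage genes 1 to 8. Others of these lists were called lower. At 28 µmol/kg RSG 2 adipocyte genes were, and at 84 µmol/kg S 3 macrophage genes were lower and 1 higher (median 0.01). Over the 6 groups 21.4 to 27.9% of all probes were called higher and 28.3 to 37.9% lower. All 9 tested genes of skeletal muscle were called lower than the pool in each of the 6 groups, with list medians from -1.93 to -1.19. In whole tissue, fewer cells of a type and less RNA per cell cannot be told apart, and the part of these markers in the liver results was not tested. Over all 36 liver mice, the genes whose ratios were nearest to those of Apoa1, among 15792 named genes, were Unc93a, Calr3 and Gadd45b, with a root mean square difference of 0.36, 0.37 and 0.39. At 280 µmol/kg S their means were 1.99, 1.74 and 1.85.

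IAT showed another pattern. Apoc1, Apoc2, Apoa4 and Mttp rose in all 6 groups, Apoe fell at the higher doses of RSG and the highest dose of S, and Apob, Apoa1, Apoa2, Apoa5 and Apoc3 differed widely between mice of a group and were called in few groups. Of the 10 members limma called 4 higher and 0 lower at 28 µmol/kg RSG, where 46.3% of all 31429 probes tested were called (27% higher and 19.3% lower) and 5 members had an unadjusted p under 0.05. At 84 µmol/kg RSG it called 4 higher and 2 lower (65% of all probes, 37.9% higher and 27.2% lower), and at 280 µmol/kg 6 higher and 1 lower (66.3%, 36.5% and 29.8%). For S it called 4 higher and 0 lower at 28 µmol/kg (47%, 27.9% and 19%), 6 higher and 0 lower at 84 µmol/kg (55.1%, 32.7% and 22.3%), and 5 higher and 2 lower at 280 µmol/kg (74.1%, 42% and 32.1%), with an unadjusted p under 0.05 for 5, 7 and 7 members. By the study's rule 2, 4 and 3 members were called for RSG, where 12.8, 24.6 and 28.2% of all probes were, and 3, 4 and 4 for S, where 13, 16.8 and 37.4% were. Against that background the number of members called is no result about them. The values for each mouse are shown in the plot of the members in IAT.

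**Figure D3:**
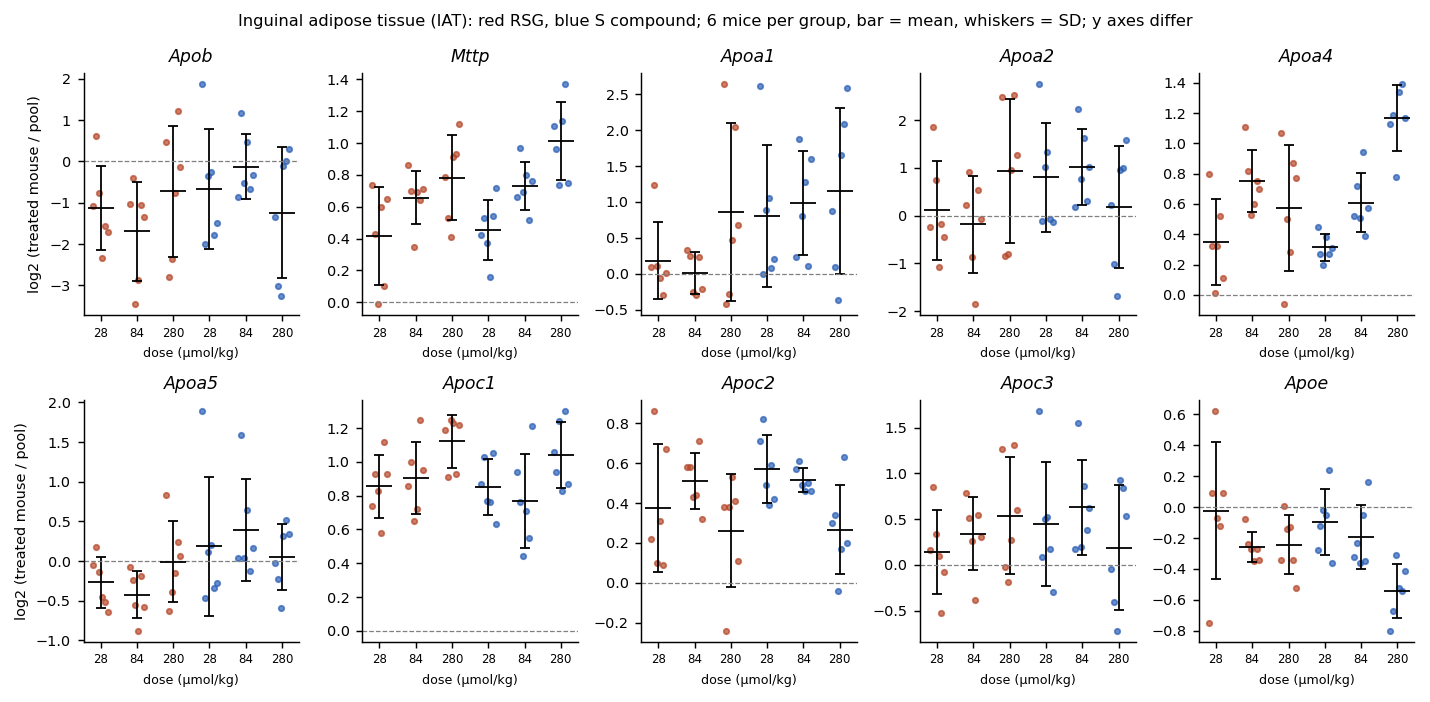
Log2 ratio of treated mouse over pool in IAT for each member (y axis) against dose in µmol/kg (x axis); points are the 6 mice of a group, red for RSG and blue for S, bars are means and whiskers the SD. Apoc1 lies between 0.44 and 1.3 in all mice, and Apob spreads from -3.45 to 1.87; Apoa1 was well above background on few arrays, and on 0 of 12 in either channel at 84 µmol/kg RSG.

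The signals show which members IAT expresses well. For the same probe, the median processed intensity of the pool in IAT was 16400 for Apoc1, 3250 for Apoc2 and 115000 for Apoe, against 489000, 65500 and 386000 in liver. For the members made chiefly by liver and gut it was far lower, with 16.7 in IAT and 19400 in liver for Apoa1, 78.9 and 135000 for Apoa5, 78.9 and 85300 for Apob, and 56.6 in IAT for Apoc3. Mttp had 52.6 in IAT and 2690 in liver, and Apoa4 42.1 and 5440. Apoc1, Apoc2 and Apoe were well above background on all 72 IAT arrays in both channels. Apob was well above background on 72 arrays in the pool and on 48 in the treated mouse, and Apoa1 on 7 and 24.

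Apoc1 was the member of IAT with the steadiest rise. Its ratio ranged from 0.58 to 1.12 (median 0.88), from 0.65 to 1.25 (median 0.91) and from 0.91 to 1.25 (median 1.21) at the rising doses of RSG, and from 0.63 to 1.05 (median 0.82), 0.44 to 1.21 (median 0.74) and 0.83 to 1.3 (median 1.0) under S. Every mouse was above the pool, and the groups overlapped. The means were 1.71 to 2.18 times the pool, with adjusted p between 1.9e-13 and 3.5e-09. Apoc2, 17.9 kb away, was higher by less, with means between 0.26 ± 0.28 (SD, n = 6, 280 µmol/kg RSG) and 0.57 ± 0.17 (28 µmol/kg S) and adjusted p of at most 0.0096. At 280 µmol/kg leaving out replicate 4 for RSG ended its call (adjusted p 0.056) as did replicate 5 for S (0.058), and with scan day as the block those at 28 and 280 µmol/kg RSG were lost (0.11 and 0.09), the second also with the group fitted alone (0.07). In the authors' own table of combined dye swaps, where 3 of the 6 mice of 280 µmol/kg S were left out because their columns did not match their arrays best, the call in that group was lost (0.20, adjusted p 0.16).

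Apoe, the third gene of that cluster, did not rise with them. Its mice ranged from -0.75 to 0.62 at 28 µmol/kg RSG (median 0.01), from -0.35 to -0.08 at 84 µmol/kg (median -0.27) and from -0.52 to 0.01 at 280 µmol/kg (median -0.24). Under S the ranges were -0.36 to 0.24 (median -0.08), -0.36 to 0.16 (median -0.28) and -0.80 to -0.31 (median -0.53). At the highest dose of S all mice were below the pool, and elsewhere only those of 84 µmol/kg RSG were. limma called it lower at 84 and 280 µmol/kg RSG (-0.26 and -0.24, adjusted p 0.022 and 0.031) and at 280 µmol/kg S (-0.54, or 0.687 times the pool, 1.1e-05). The call at 84 µmol/kg RSG was lost without replicate 4 or 6 (0.056 and 0.054), and that at 280 µmol/kg RSG without replicate 1, 5 or 6 (0.078, 0.077 and 0.13), with scan day as the block (-0.31, 0.12), with the slide as a random block (0.058) and with normexp background correction (-0.22, 0.057). Macrophage genes moved beside it: of 13, 8 were lower at 84 µmol/kg RSG, 10 at 280 µmol/kg RSG and 8 at 280 µmol/kg S. Of all probes 27.2, 29.8 and 32.1% were called lower in these groups. The medians of the list were -0.27, -0.55 and -0.35, and the mean over the list per mouse ran from -0.83 to 0.25 over all IAT mice. Across mice, after taking out group means, Pearson's r between that mean and Apoe was 0.14 (Spearman's rho 0.15, adjusted permutation p 0.48 and 0.5, r 0.09 without the 2 farthest mice).

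Mttp and Apoa4 rose in IAT from a low level. Mttp ranged from -0.01 to 0.74 (median 0.52), from 0.35 to 0.86 (median 0.70) and from 0.41 to 1.12 (median 0.85) under RSG, and from 0.16 to 0.72 (median 0.48), 0.52 to 0.97 (median 0.73) and 0.74 to 1.37 (median 1.04) under S. Apoa4 ranged from 0.01 to 0.80 (median 0.32), 0.53 to 1.11 (median 0.72) and -0.06 to 1.07 (median 0.64) under RSG, and from 0.20 to 0.45 (median 0.29), 0.39 to 0.94 (median 0.55) and 0.78 to 1.39 (median 1.18) under S. All but 1 mouse for each gene were above the pool, and the highest dose of S did not overlap with the lowest for either. The share of all probes without such overlap was not counted. At 280 µmol/kg S the means were 2.02 times the pool for Mttp (adjusted p 1.9e-11) and 2.25 times for Apoa4 (7.7e-12). These folds rest on dim pool signals (median 52.6 and 42.1), and sizes for both genes depend on the background correction. With normexp the difference between 280 and 28 µmol/kg S was 0.13 instead of 0.56 for Mttp. RSG minus S at 280 µmol/kg was then -0.15 instead of -0.60 for Apoa4. The call of Apoa4 at 28 µmol/kg was lost for RSG without replicate 1 (0.055) and with scan day as the block (0.25), and for S with that block (0.053) and with normexp background correction (0.08, 0.17).

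The difference between 280 and 28 µmol/kg S was 0.56 for Mttp (adjusted p 0.0008) and 0.86 for Apoa4 (1.4e-05), and Apoe (-0.44, 0.01) and Apoc2 (-0.30, 0.046) were lower, 4 of 10 members where 42.7% of all probes were called (25.9% higher and 16.8% lower). With normexp background correction Mttp was 0.13 higher and lost its call (0.14). The call of Apoc2 was lost when any of 9 of the 12 mice was left out (adjusted p up to 0.12), with no filter on dim probes (0.058), with the slide as a random block (0.07), with the replicate number as a block (0.05) and in the authors' table with those 3 mice left out (-0.37, 0.064). For RSG the same contrast called 1 member, Mttp (0.36, 0.037), where 24.9% of all probes were called (13.4% higher). That call was lost when any of 7 mice was left out (up to 0.13), with scan day as the block (0.42, 0.32), with the slide as a random block (0.074) and with the 2 groups fitted alone (0.15). Between compounds in IAT limma called 0 members at 28 µmol/kg (0.00636% of all probes) and 0 at 84 µmol/kg (2.11%), with an unadjusted p under 0.05 for 0 and 2 members, and 1 at 280 µmol/kg (1.49%, of which 1.09% lower under RSG). This was Apoa4, lower under RSG than under S (RSG minus S -0.60, 95% interval -0.89 to -0.30, adjusted p 0.034), a call lost when any of 7 mice was left out (up to 0.12), with the slide as a random block (-0.59, 0.11), with the 2 groups fitted alone (0.27), with normexp background correction (-0.15, 0.28) and in the authors' table with the same 3 mice left out (-0.46, 0.28). Apoc1 differed between the compounds by 0.00 (-0.23 to 0.24), 0.13 (-0.10 to 0.37) and 0.08 (-0.15 to 0.32) at the 3 doses. The arrays of 280 µmol/kg S in IAT were scanned on days that held no other group, so day and group cannot be told apart there. In the other comparisons between doses or compounds in IAT, no scan day held mice of both groups either.

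Apob, Apoa2, Apoa5, Apoc3 and Apoa1 in IAT varied from mouse to mouse rather than from group to group. Apob ranged from -3.45 to -0.39 at 84 µmol/kg RSG (median -1.20) and from -3.27 to 0.30 at 280 µmol/kg S (median -0.74), the 2 groups in which it was called lower (-1.69 and -1.24, adjusted p 0.0051 and 0.031). The second was lost without replicate 1, 2 or 3 (0.058, 0.15 and 0.17) and with the group fitted alone (0.081). With normexp background correction the values were -0.37 and -0.25 (0.066 and 0.21). In the other 4 groups its medians were -1.32 and -0.45 at 28 and 280 µmol/kg RSG and -0.92 and -0.43 at 28 and 84 µmol/kg S, with mice on both sides of the pool. A further Apob probe was called lower at 28 and 84 µmol/kg RSG (-1.19 and -1.38, adjusted p 0.024 and 0.0063), and not at 280 µmol/kg S (-0.92, 0.056). At 28 µmol/kg RSG Apob was also called with the group fitted alone (-1.14, 0.049) and with the mean of its probes (-1.16, 0.04). Apoa2 had an SD between 0.79 and 1.5 in the groups and no call, and its means ran from -0.19 to 1.02. With other settings it was called higher at 280 µmol/kg RSG (normexp background correction, 0.77, adjusted p 0.038) and at 84 µmol/kg S (group fitted alone, 1.02, 0.021). Apoa5 had no call either, but was called lower at 84 µmol/kg RSG with the group fitted alone (-0.42, 0.013). Apoc3 was called higher at 280 µmol/kg RSG (0.54 ± 0.64, 0.036) and 84 µmol/kg S (0.63 ± 0.52, 0.02), and these calls were lost without replicate 1, 5 or 6 (0.16, 0.17 and 0.069) and without replicate 2 or 4 (0.13 and 0.054). The first was also lost with scan day as the block (0.42, 0.32), with the slide as a random block (0.06) and with the group fitted alone (0.078). Apoa1 was called higher at 280 µmol/kg RSG (adjusted p 0.033), where the treated mouse was well above background on 6 of 12 arrays and the pool on 2, and at 84 and 280 µmol/kg S (0.019 and 0.0042), where the treated mouse was on 6 of 12 in each and the pool on 2 and 1. The call for RSG was lost without replicate 1 or 5 (0.23 and 0.16), with scan day as the block (0.22), with the slide as a random block (0.062) and with the group fitted alone (0.13). The call at 84 µmol/kg S was lost without replicate 2 or 6 (0.084 and 0.064), with scan day as the block (0.056) and with normexp background correction (0.15). That at 280 µmol/kg S was lost in the authors' table with the 3 mice left out (adjusted p 0.7). No fold is given for it, because most values on both sides were near background.

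From mouse to mouse these 5 genes followed the mean of the listed hepatocyte markers in the same sample. Of 16 listed hepatocyte genes, 13 were tested in IAT, among them albumin, whose pool intensity was 2240 and which was well above background on all 72 arrays, while transthyretin and fibrinogen alpha were not well above background in the pool on any array. Rbp4 (35500) and Cyp2e1 (6310), also of this list, were brighter in the pool than albumin. The mean log2 ratio of the 13 genes ran from -1.77 to 1.52 over the 36 mice. Across mice, after taking out group means, Pearson's r between this mean and the member was 0.96 for Apoa2, 0.95 for Apoc3, 0.94 for Apob, 0.92 for Apoa1 and 0.89 for Apoa5 (Spearman's rho 0.95, 0.95, 0.94, 0.93 and 0.93). Each of these has an adjusted permutation p of 4e-05 over 20 relations. The unadjusted p of each was 1e-05, the smallest that 100000 permutations within groups can give. Without the 2 mice farthest from the median r was between 0.87 and 0.96 for these genes. Within the 3 scan days with at least 8 mice it was between 0.84 and 0.98. The r of Apoa1 rests on a dim probe, well above background on 7 of 72 arrays in the pool and on 24 in the treated mouse.

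**Figure D4:**
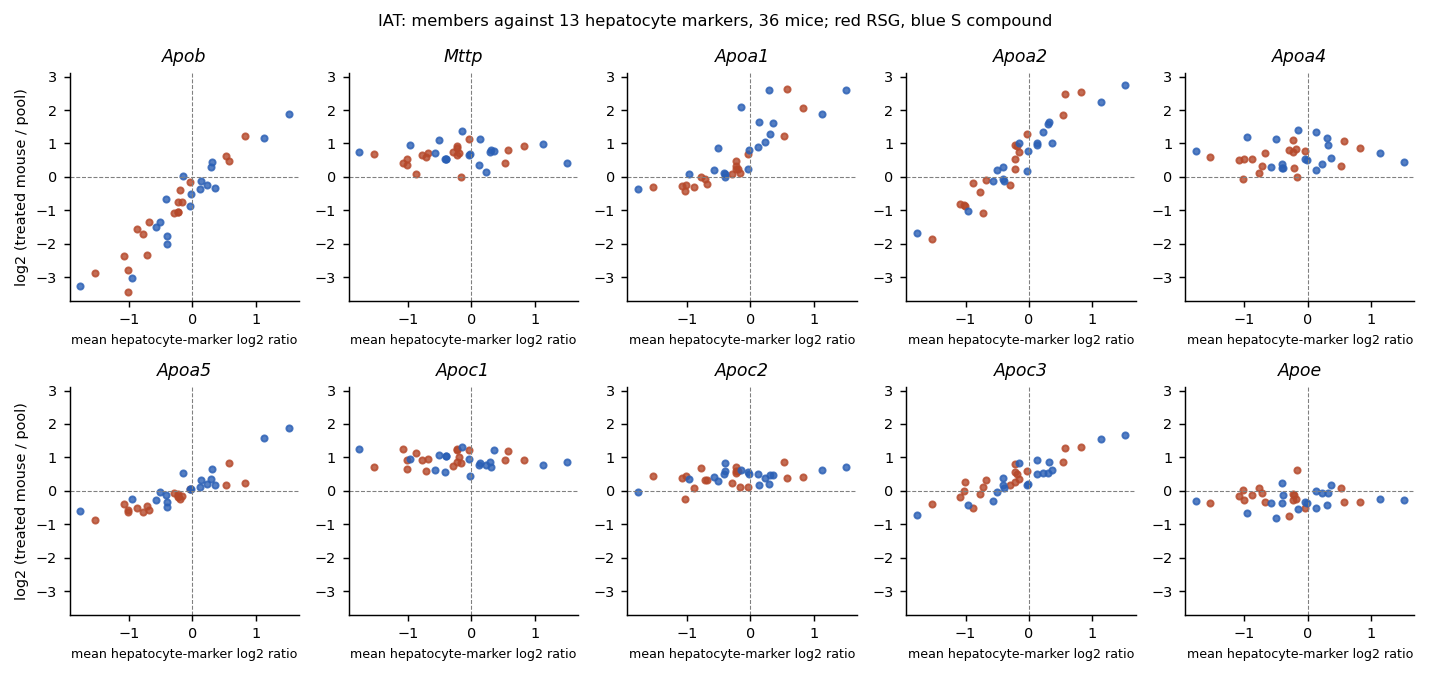
Log2 ratio of each member in IAT (y axis) against the mean log2 ratio of 13 hepatocyte markers in the same mouse (x axis); each point is 1 of 36 mice, red for RSG and blue for S. Apob, Apoa1, Apoa2, Apoa5 and Apoc3 rise along the x axis, and Apoc1, Apoe and Mttp do not follow it.

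The members that were called in most groups of IAT followed the same markers less or not at all. Pearson's r over the 36 mice was 0.57 for Apoa4 (rho 0.61, adjusted permutation p 0.0025 and 0.0013, r 0.53 without the 2 farthest mice), 0.41 for Apoc2 (rho 0.33, 0.074), 0.28 for Mttp (rho 0.24, 0.22), 0.04 for Apoc1 (rho 0.03, 0.84) and -0.06 for Apoe (rho 0.01, 0.84). Against the mean of 13 macrophage markers no member had an adjusted permutation p under 0.05, and r was -0.22 for Apoc1 (0.39). With the hepatocyte mean as a covariate of the fit, chosen after seeing the data, Apoc1, Apoc2, Apoa4 and Mttp were called higher in all 6 groups, where 47.9 to 75.7% of all probes were called. For genes with a low r, such as Apoc1 and Mttp, the covariate could change little, so the fit is no separate test of them. Apoa2 was then higher in all groups (0.65 to 1.19), with its mean at 84 µmol/kg RSG going from -0.19 to 0.88. Apoc3 (0.38 to 0.87) was also higher in all, and Apob was lower in 5 of 6 (-0.82 to -0.43), with -0.33 and an adjusted p of 0.1 at 280 µmol/kg S. Apoa1, most of whose values were near background, was also called higher in all 6 groups, and Apoa5 was called at 280 µmol/kg S (0.41, adjusted p 0.0011). Among the 3 of 18286 named genes nearest to Apob over the 36 mice was Ces1c, with a root mean square difference of 0.54.

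Enterocyte genes stood apart between pool and treated mice in IAT. Their mean log2 ratio was between -1.76 and -1.11 in every one of the 36 mice, with list medians from -1.41 to -1.01 in the 6 groups and 7 or 8 of 10 genes called lower. Over the 6 groups 19 to 32.1% of all probes were called lower. Cdx2, a transcription factor of gut epithelium, was well above background on 72 arrays in the pool and on 4 in the treated mice. Several members, Apob, Mttp and Apoa4 among them, are also expressed by gut, and the part of this difference in their ratios to the IAT pool was not tested. Genes of skeletal muscle and epithelium were lower as well, with list medians of -1.59 and -1.92 at 280 µmol/kg RSG and of -2.99 and -2.58 at 280 µmol/kg S. In the comparisons between treated groups the pool cancels.

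The change in IAT was set against that in liver at 280 µmol/kg in 1 fit of both tissues, over 25528 probes tested in both, of which 60.5% were called for RSG and 72.9% for S. For RSG 6 members were higher in IAT than in liver and 1 was lower (38.6% and 21.9% of all probes), and for S 6 were higher and 2 lower (47.1% and 25.8%). Apoa4 differed by 1.54 and 2.09, Apoc3 by 1.11 and 1.52, and Apoa5 by 1.11 and 1.49, with adjusted p between 1.8e-07 and 0.0002. Mttp differed by 0.63 and 0.58 (3.9e-06 and 1.1e-05), of which the second became -0.09 (0.33) with normexp background correction. Apoc2 differed by 0.30 and 0.64 (0.042 and 1.4e-05), and the first call was lost when any of 8 mice was left out (up to 0.12), with centring (0.23, 0.11), with no probe filter (0.056), with normexp (0.057) and with the slide as a random block (0.066). For the 3 other members called the size of the difference is not given here: Apoc1, called higher in IAT, and Apoe, called lower, had saturated liver spots on 57 and 71 of 72 arrays, and Apoa1, called lower in IAT for S (adjusted p 0.016, lost without IAT replicate 2 or 3), was near background in IAT. The mice of Apoc1 in IAT were at 0.91 to 1.25 for RSG and 0.83 to 1.3 for S. The fit took the samples of both tissues as separate mice, and taking IAT minus liver between samples with the same treatment and replicate number, chosen after seeing the data, changed no call of a member. Each tissue had its own pool, which does not cancel here, and Apoc3 was read in both tissues with the probe that stands for it in liver.

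**Figure D5:**
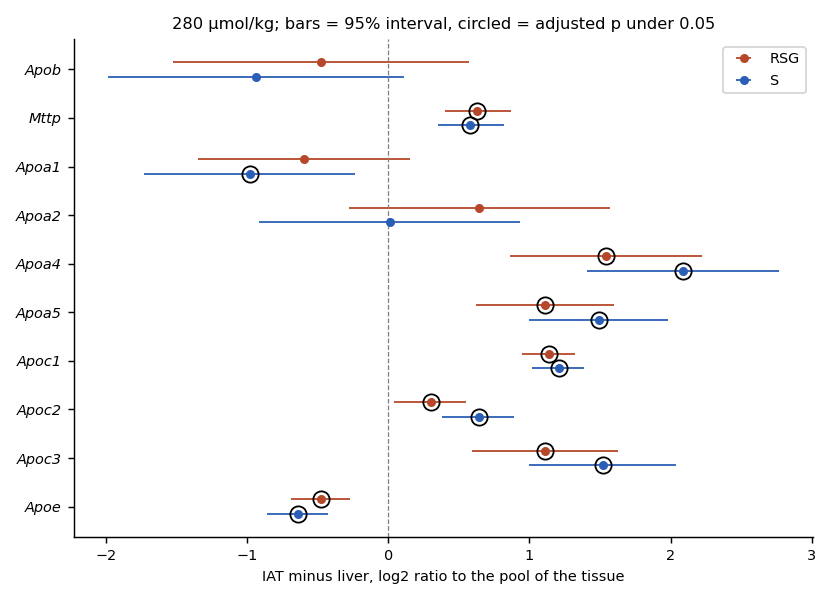
Difference between IAT and liver in the log2 ratio to the pool of the tissue (x axis) for each member (rows) at 280 µmol/kg, red for RSG and blue for S; points are differences of means of 6 mice, bars the 95% interval, circles an adjusted p under 0.05. Apoa4 is at 1.54 and 2.09 and Apoc3 at 1.11 and 1.52, and the intervals of Apob and Apoa2 include 0; the Apoc1 and Apoe points rest on saturated liver spots and the Apoa1 points on IAT signals near background.

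Genes that act with the members are given by list, beside 50.9% of all probes called at 280 µmol/kg RSG and 65.8% at 280 µmol/kg S in liver. Of 12 measured other apolipoproteins and related proteins in liver, 7 fell and 1 rose at 280 µmol/kg RSG and 11 fell and 1 rose at 280 µmol/kg S, with list medians of -0.49 and -1.14 against -0.03 and -0.05 over all probes. Among them were Apon (-1.11 and -1.37) and Apoh (-0.59 and -1.07), while Apobec1, the enzyme that edits Apob mRNA, was higher (0.27 and 0.30). Of 20 genes of lipoprotein assembly and secretion, 5 rose and 8 fell under RSG and 4 rose and 10 fell under S, with medians of -0.06 and -0.06. Sort1, a sorting receptor that binds apolipoprotein B, was higher by 1.90 and 1.89, and Surf4, a cargo receptor of the secretory pathway, lower (-0.31 and -0.55).

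Of 10 genes of lipases and remodelling in liver, 4 rose and 4 fell under RSG and 3 rose and 7 fell under S (medians -0.14 and -0.50). Lpl, the lipase that apolipoprotein C-II activates, was 2.80 and 4.20 higher and differed between the compounds (RSG minus S -1.40, adjusted p 3.3e-05). Pltp, the phospholipid transfer protein, was 1.87 and 2.42 higher. Of 6 sterol exporters 4 rose and 2 fell under RSG and 5 rose and 1 fell under S (medians 0.43 and 0.29), with Abca1, which loads apolipoprotein A-I with cholesterol, at 0.57 and 0.48. Of 12 receptors and uptake genes 4 rose and 4 fell, and 5 rose and 5 fell (medians 0.13 and 0.13). Of 25 transcription factors of apolipoprotein genes 5 rose and 10 fell, and 3 rose and 14 fell (medians -0.06 and -0.20). Hnf4a, a regulator of many hepatocyte genes, was lower (-0.48 and -0.68), as was Rxra, the partner of PPARs (-0.44 and -0.71).

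In IAT, where 66.3 and 74.1% of all probes were called at 280 µmol/kg of RSG and S, of 13 other apolipoproteins and related proteins 2 rose and 5 fell under RSG and the same numbers under S (medians -0.18 and -0.65, against 0.03 and 0.06 over all probes). The acute phase apolipoproteins Saa2 (-2.72 and -2.85) and Saa1 (-1.87 and -1.59) were lower, and Saa4 was higher (0.61 and 1.22). Of 19 assembly genes 7 rose and 7 fell, and 8 rose and 7 fell (medians -0.01 and 0.00), with Aadac, a hydrolase of the endoplasmic reticulum, at 2.00 and 2.40. Of 10 lipase and remodelling genes 5 rose and 0 fell under RSG, and 6 rose and 2 fell under S (medians 0.17 and 0.20). Of 14 receptor genes 3 rose and 8 fell, and 3 rose and 7 fell (medians -0.42 and -0.39): Scarb1, the receptor of high density lipoprotein, was at 0.78 and 0.80, and Lrp1, a remnant receptor that binds apolipoprotein E, at -1.0 and -1.02. Of 6 exporters 3 rose and 3 fell under each compound (medians -0.08 and 0.01), with Abcg1 at 1.32 and 1.51, and of 26 transcription factors 9 rose and 12 fell, and 11 rose and 11 fell (medians -0.02 and -0.04), with Ppara at 1.56 and 1.62 and Nr1h4 at -1.83 and -1.60. Hnf4a, at -4.36 and -4.50, was well above background on 12 of 12 arrays in the pool and on 6 and 4 in the treated mice. Over all 6 groups and every dose, Hnf4a was between -4.93 and -4.36 and Nr1h4 between -1.83 and -1.41. The enterocyte genes also stood far below the pool in every group, and the part of that difference in these 2 ratios was not tested.

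Of all probes, a median of 57.4% in liver (43.9 to 66.4% over the arrays) and 70.7% in IAT (62.3 to 78.6%) were well above background in the treated channel, and the number of arrays limits the precision. In liver, 6 technical repeats for 28 µmol/kg RSG and 6 for 28 µmol/kg S, which enter no test, had a smaller SD than the 6 mice of the same group for 7 and 8 of the 10 members. For Apoa1 the SD was 0.04 between repeats and 0.21 between mice for RSG, and 0.01 and 0.41 for S, and for Apoa4 it was 0.09 and 0.58, and 0.04 and 0.64. A larger SD between repeats than between mice was found for Apob (0.20 and 0.11, 0.12 and 0.10) and Apoc1 (0.08 and 0.06, 0.11 and 0.07) for both compounds, and for Mttp for RSG (0.17 and 0.15). The repeats for RSG ranged from -0.72 to -0.53 for Apoa4, below all 6 mice of that group (-0.41 to 1.09), and had a mean of -0.47 for Apob, below all 6 mice (-0.31 to 0.00). The labels do not say which mouse the repeats came from.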

How the data were processed

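Liver and inguinal adipose RNA, 72 samples of treated mice, was hybridised against a control pool on 144 two-colour Agilent arrays, and 12 liver technical repeats on 24 more. Intensities deposited by the authors were processed signals from Agilent Feature Extraction 9.5, background-subtracted and dye-normalised, per the file headers. The deposited log10 ratios, LogRatio of red over green, were made by the same software, turned to treated over pool, converted to log2 and averaged over spots of a probe and over the dye-swapped pair, whose correlation before turning was -0.94 to -0.614. The authors' processed log10 table, of dye swaps they had combined, was an alternative, with 80 of its 84 columns used, as 4 did not match their own arrays best. Spots that Feature Extraction marked as outliers were left out. A probe was tested if, in at least 1 group, one of its channels was well above background in no fewer than 50% of arrays, and the test was made with limma 3.58.1 in R 4.3.3. Each tissue had 1 fit over its 36 treated mice, and p-values were adjusted over all its probes (Benjamini-Hochberg). P-values measure the spread between these mice. All 10 members are named, each by its brightest probe not saturated on more than 50% of arrays or, for Apoc1 and Apoe in liver, whose only probe was, by that probe. From each pathway list the genes with the smallest p at 280 µmol/kg RSG, and 1 that went the other way, are named, as are the 3 genes nearest to the member with the largest mean absolute ratio in each tissue; some of these genes are not reported here. Members and lists were chosen with earlier results of these data known. The fits were tested on simulated data. Technical repeats entered no fit. Alternatives were normexp correction (offset 50) with loess, centring, the probe filter, saturated spots, several probes, scan day, slide and replicate blocks, groups fitted alone, a marker covariate, the study's rule and leaving out each mouse. Gene symbols came from the array files, and 23374 probes were matched to RefSeq.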

Additional observations from a re-analysis of the deposited data

Results flagged for a closer look

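Among 120 groups of 6 mice, 4 held a mouse whose gap to its nearest neighbour was large for the range of its group, where chance gives about 6. These were Apoa2 in liver at 84 µmol/kg RSG (replicate 2 at 0.27, the others at 0.32 to 0.35), Apob in liver at 28 µmol/kg RSG (replicate 1 at -0.31, the others at -0.11 to 0.00), Apoa1 in IAT at 28 µmol/kg RSG (replicate 2 at 1.23, the others at -0.30 to 0.11) and Apoa5 in IAT at 28 µmol/kg S (replicate 1 at 1.89, the others at -0.47 to 0.20).

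The log2 ratio to the pool differed between IAT and liver at 280 µmol/kg, by limma's test of the difference itself, for 7 members under RSG and 8 under S. Of all probes 60.5% and 72.9% were called in these comparisons, so the counts are no result about the members. For RSG, IAT minus liver was 1.54 for Apoa4, 1.11 for Apoa5, 1.14 for Apoc1, 0.30 for Apoc2, 1.11 for Apoc3, 0.63 for Mttp and -0.48 for Apoe. For S it was -0.98 for Apoa1, 2.09 for Apoa4, 1.49 for Apoa5, 1.21 for Apoc1, 0.64 for Apoc2, 1.52 for Apoc3, 0.58 for Mttp and -0.64 for Apoe. The liver spots of Apoc1 and Apoe were saturated in at least 1 channel on 57 and 71 of 72 arrays, and Apoa1 was well above background in the IAT pool on 7 of 72, so their differences are not sizes of change.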

How the results depend on the processing

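Among member values called in either of the settings compared, none changed sign when a mouse was left out. In other settings 5 such values did: with scan day as the block, Apob in liver at 28 µmol/kg S (0.14); with normexp and loess, Apoe in liver at 280 µmol/kg S (-0.03) and Mttp in IAT minus liver for S (-0.09); and with the hepatocyte covariate, chosen after seeing the data, Apoa2 in IAT at 84 µmol/kg RSG (0.88) and Apoc3 in IAT for RSG minus S at 84 µmol/kg (0.42). The number of members called moved by over 1.5 times as follows, and the cause was not tested. By the study's rule it was 3 in each liver group of RSG and 3, 3 and 4 for S, 2 and 3 in IAT at 28 and 280 µmol/kg RSG, 4 at 280 µmol/kg S, and 1 (liver RSG), 0 (IAT RSG) and 2 (IAT S) between doses. With scan day as the block it was 4 and 6 in liver at 28 and 280 µmol/kg S, 2 and 3 in IAT at 28 and 280 µmol/kg RSG, 1 for RSG minus S in liver at 280 µmol/kg, and 0 between RSG doses in IAT; IAT at 280 µmol/kg S could not be fitted so. With the slide as a random block, also chosen after seeing the data, or the groups fitted alone, it was 4 in IAT at 280 µmol/kg RSG, 0 for RSG minus S there and 0 between RSG doses. With normexp it was 7 for RSG minus S at 280 µmol/kg in liver and 0 in IAT, and in the authors' table, which lacked 3 of the 6 mice of 280 µmol/kg S in IAT and 1 at 84 µmol/kg S, it was 0 there as well. With the covariate it was 8 in IAT at 28 µmol/kg of either compound, and 1 and 2 for RSG minus S at 84 and 280 µmol/kg. Leaving out 1 mouse gave 4 to 8 in IAT at 280 µmol/kg RSG, 0 to 1 for RSG minus S in liver at 84 µmol/kg and in IAT at 280 µmol/kg, 2 to 5 in liver at 280 µmol/kg, and 0 to 3 between RSG doses in IAT. Centring, the mean of the probes and no filter moved no count by over 1.5 times, though they ended 4, 1 and 5 calls.

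In none of the 12 comparisons of groups did all 6 pairs of the same replicate number have a correlation of deviations over 0.1 (the lowest pair was between -0.51 and 0.092), so the numbers were not taken to pair the mice. The pairs were closest for RSG in IAT and liver, with 0.062 to 0.22 and 5 of 6 best with their own number. With the replicate block, 1 member was called for RSG minus S in liver at 84 µmol/kg and 5 at 280 µmol/kg. Paired so between IAT and liver, 7 members were called for RSG and 8 for S, as without pairing. In liver, Apoc1 and Apoe have no value without saturated spots, and in IAT Apoa1 is limited by its signal over background.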
